A study of Arabidopsis thaliana with 16 samples.

Results

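UDP-glycosyltransferases (UGTs) of Arabidopsis thaliana were followed along the root and after a shift to acid medium. The members were the genes whose symbol in the array annotation reads UGT, digits, a letter and digits, each through a probe set that matches a single gene; there were 47 of 13355 genes measured through such a probe set, and each of the 47 had 1 probe set. The rule reads names, not signals. Roots of 6-day-old seedlings of the Columbia ecotype were cut into 4 numbered longitudinal zones. Before that, every seedling spent 5 days at pH 5.7 on ordinary medium buffered with MES and was then moved for 24 h to fresh medium at pH 4.6 or at pH 5.7, both with the same salts, 1% sucrose, 1% agar and 3 mM DMG, so the control seedlings were transferred too. Each zone at each pH had 2 arrays, which gave 8 groups and 16 arrays, and the labels call the zones developmental stages without naming the tissue in each or saying that replicates were separate cultures. The p-values therefore cover no more than how far these arrays spread, and that spread may be technical. Since a zone is a piece of whole root, fewer cells of a type and less RNA per cell cannot be told apart.

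UGTs move a sugar from a UDP-sugar, most often UDP-glucose, onto a small acceptor molecule such as a lignin precursor, a flavonoid, a hormone or a foreign compound. The sugar makes the acceptor more soluble and usually less active, and lets it be stored in the vacuole or carried out of the cell. The plant enzymes share a conserved motif near the carboxyl end that holds the UDP-sugar, and the family number groups them into clades by sequence. In roots they act on monolignols and hydroxycinnamic acids that feed cell walls and exudates, and they inactivate auxin, cytokinin, abscisic acid and salicylic acid.

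Levels are MAS5 signals, linear array intensities whose trimmed mean was alike on all 16 arrays as deposited. Differences were tested on log2(signal + 16), on which changes of dim probe sets are understated, and are given as log2 fold change ± SE with n = 2 arrays per group. A gene is said to have risen or fallen only at a Benjamini-Hochberg adjusted p under 0.05 in limma, adjusted over all 16405 probe sets tested. Shares of all probe sets are given at that threshold. Counts of members at unadjusted p under 0.05 have no such share beside them, as it was not counted, and show no excess over other genes. Of the 47 members 38 passed the filter on dim probe sets and were tested. The filter asked for a mean of at least 5.95 on the log2 scale in at least 1 zone; 19 members met it in all 4 zones, 15 in 2 or 3, and 4 in 1 zone (UGT76E11, UGT76E12, UGT85A4 and UGT85A7). The nearest members on either side of it were UGT85A4, tested with a highest zone mean of 6.08, and UGT85A5, left out with 5.55. The other 8 left out were UGT71B6, UGT71B8, UGT73C1, UGT73C2, UGT76E1, UGT78D3, UGT84B1 and UGT84B2. In UGT76E1 the signal lay between 2.93 and 19.4 over the 16 arrays, in UGT73C1 between 2.74 and 20.01. Of the 9 left out, UGT71B8 was not dim in every group: it read 49.7 and 48.6 in zone 4 at pH 4.6 and 5.03 and 2.42 at pH 5.7, and it missed the filter because a zone is averaged over both pH values. The other 8 had no group mean above the filter level.

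Clade letters follow the textbook grouping by family number. The 47 members covered 7 of these clades plus a sterol glucosyltransferase, UGT80B1. Clade E (UGT71, UGT72, UGT88) had 14 members, of which 12 were tested; clade D (UGT73) had 7 with 5 tested, clade H (UGT76) 8 with 7, and clade L (UGT74, UGT84) 8 with 6. Clade G (UGT85) had 5 with 4 tested, clade F (UGT78) 3 with 2, and clade J had UGT87A2. By gene order in the RefSeq table, 31 of the 47 lay in 13 runs of members with at most 2 other genes between neighbours, such as UGT71C5, UGT71C4 and UGT71C3 side by side on chromosome 1 and UGT84A1, UGT84A3 and UGT84A4 side by side on chromosome 4. Such copies are alike in sequence, so a probe set named for 1 gene may also read transcripts of its neighbour.

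The arrays differed in ways the groups do not explain. The median signal of an array lay between 64.7 and 101, and replicates correlated with r from 0.838 (zone 3 at pH 5.7) to 0.958 over tested probe sets, which are not independent. On 4 arrays 69 plastid genes averaged more than 1 log2 unit higher than on the other array of the group: replicate 2 of zone 2 at pH 5.7, of zone 3 at both pH values, and of zone 4 at pH 5.7. These 4 stand apart from their replicates and are not the highest of all: the plastid mean was 8.45 on that zone 4 array, while both zone 1 arrays at pH 4.6, which lie close together, had 9.91 and 10.3. Tested members differed between the replicates of zone 3 at pH 5.7 by a median of 0.96 on the log2 scale, against 0.33 to 0.56 in the other 7 groups. Of 23 marker genes for root cell types and green tissue, 7 had a probe set listed here. The meristem regulator BBM had signals of 112 to 176 in zone 1 and 1.68 to 64.1 elsewhere. The root hair expansin gene EXPA7 reached 212 to 3138 in zone 3 and at most 176 in the other zones. The light-harvesting gene LHCB4.1, a marker of green tissue, ran from 313 to 391 in zone 4, from 132 to 241 in zone 3, from 10.7 to 25.3 in zone 2 and from 60.4 to 198 in zone 1. No marker of the endodermis, or of root cap and quiescent centre, was measured through a listed probe set.

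At pH 5.7 the tested UGTs were most often highest in zone 4 and lowest in zone 1. Of the 38, 19 had their highest group mean in zone 4 (50.0%, against 23.3% of all 16405 probe sets), 8 in zone 2, 7 in zone 3 and 4 in zone 1; 19 had their lowest mean in zone 1 (50.0% against 26.5%). At pH 4.6, on separate arrays, 14 were highest in zone 4 (36.8% against 21.9%) and 20 lowest in zone 1 (52.6% against 28.2%). Over all 47 members, dim ones included, 20 were highest in zone 4 and 23 lowest in zone 1 at pH 5.7, where 20.3% and 28.4% of all 22746 probe sets were; at pH 4.6 the counts were 19 and 23, against 20.8% and 25.3%. The highest zone was the same at both pH values in 21 of the 38, which was not counted over all probe sets. These counts rank group means of 2 arrays and carry no test.

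From zone 1 to zone 2 at pH 5.7, UGT76C2 was the 1 member that passed the test, where 3.14% of all probe sets passed and 1.48% fell. UGT76C2 puts glucose on a nitrogen of cytokinins and so inactivates them. Its signals were 189 and 143 in zone 1 and 11.8 and 17.5 in zone 2, a fall of -2.56 ± 0.37 (adjusted p = 0.00137). At pH 4.6 they were 147 and 131 in zone 1 and 7.68 and 11.2 in zone 2, a fall of -2.61 ± 0.37 (adjusted p = 0.00053). The zones did not overlap at either pH, and the 2 comparisons share no array. From there it rose again into zone 3, to 90.4 and 90.8 at pH 5.7 (1.80 ± 0.37) and to 229 and 129 at pH 4.6 (2.89 ± 0.37). At pH 5.7 it rose once more into zone 4, with 359 and 238 (1.53 ± 0.37), a call lost without zone 4 replicate 1 (adjusted p = 0.162). Markers moved over the same steps: LHCB4.1 fell from zone 1 to zone 2 (-2.55 at pH 5.7 and -1.32 at pH 4.6) and rose into zone 3 (2.56 and 2.62), and BBM fell from zone 1 to zone 2 (-2.41 and -3.08). The other meristem markers had -0.24 and -1.21 (HTB1) and -1.06 and 0.18 (AUR2) from zone 1 to zone 2. Of these values only that of HTB1 at pH 4.6 passed. Their part in the UGT76C2 values was not tested. The related and adjacent gene UGT76C1, also a cytokinin glucosyltransferase, had 0.44 ± 0.64 from zone 1 to zone 2 at pH 5.7 and did not pass in any comparison.

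At pH 4.6 the step from zone 1 to zone 2 held 5 calls among the 38 (13.2%, against 8.7% of all probe sets), 3 higher and 2 lower, where 5.26% and 3.44% of all were. UGT71C3 rose from 82.1 and 132 to 525 and 468 (2.09 ± 0.41), its neighbour UGT71C4 from 553 and 586 to 1825 and 1672 (1.59 ± 0.32), and UGT76B1, which glucosylates isoleucic and salicylic acid, from 562 and 1098 to 2275 and 2966 (1.70 ± 0.32). UGT78D1, a flavonol rhamnosyltransferase, fell from 360 and 144 to 18 and 5.23 (-3.19 ± 0.61). All arrays of zone 2 lay on 1 side of those of zone 1 in these genes. Without zone 1 replicate 1, UGT71C3, UGT76B1 and UGT78D1 had adjusted p = 0.0534, 0.0502 and 0.0624; without zone 2 replicate 2, UGT71C4, UGT76B1 and UGT78D1 had 0.0522, 0.0647 and 0.0668. The meristem markers BBM (-3.08) and HTB1 (-1.21) and LHCB4.1 (-1.32) also fell in this step at pH 4.6. A further meristem marker, AUR2, did not (0.18). The plastid mean went from 9.91 and 10.3 to 8.04 and 8.14. The part of the markers or of the plastid signal was not tested. UGT71C3, UGT71C4, UGT76B1 and UGT78D1 had values of 0.80, 1.03, 0.67 and -0.68 at pH 5.7, the same signs, and did not pass there.

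The step from zone 2 to zone 3 held the most calls of members: 9 of 38 at pH 5.7 (23.7%, against 30.5% of all probe sets) and 6 at pH 4.6 (15.8% against 19.6%), so the share called was below that of all probe sets. At pH 5.7, 7 rose and 2 fell, where 13.6% and 16.9% of all did, and at pH 4.6, 4 rose and 2 fell, where 10.1% and 9.53% did. Across the same step the summed signal of 3 root hair markers went from 33.9 to 128 in zone 2 to 7821 to 10839 in zone 3 at pH 5.7, and from 70.3 to 250 to 1522 to 1840 at pH 4.6. The 3' over 5' signal of the GAPDH control on the log2 scale, a measure of RNA quality, went from 6.35 and 6.04 to 4.13 and 4.44 at pH 4.6, and from 4.39 and 6.16 to 5.08 and 5.59 at pH 5.7. At pH 4.6 the Actin control went from 5.84 and 5.36 to 5.33 and 4.93, and the Ubq control from 3.41 and 3.39 to 2.90 and 2.92. At pH 5.7 the zones overlapped for each control. The part of the markers or controls in these results was not tested. UGT84A1, which makes glucose esters of hydroxycinnamic acids, had signals of 30.3 and 4.32 in zone 2 and of 660 and 157 in zone 3, a rise of 3.48 ± 0.68 (adjusted p = 0.00117). UGT72E3, a monolignol glucosyltransferase, rose from 40.4 and 28.3 to 402 and 272 (2.80 ± 0.45), and at pH 4.6 from 69.3 and 49.4 to 703 and 364 (2.81 ± 0.45). The zones were apart at both pH values for UGT72E3, and its call held without any 1 array at either. UGT84A1 at pH 4.6 went from 10.2 and 60.3 to 173 and 58.4, where the arrays overlap, and did not pass (1.40 ± 0.68). UGT84A1 and UGT72E3 passed the filter on dim probe sets only through zones 3 and 4, where they are high. Their rises from zone 2 are therefore not independent of that choice.

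Other members that rose into zone 3 at pH 5.7 were UGT71C1 (253 and 149 to 1138 and 586), UGT72B3 (10.9 and 5.86 to 27.0 and 167), UGT73D1 (16.7 and 28.8 to 116 and 84.6) and UGT71C5 (130 and 142 to 481 and 194), by 1.98 ± 0.62, 1.87 ± 0.64, 1.59 ± 0.50 and 1.09 ± 0.38. Their adjusted p of 0.0225, 0.0372, 0.0241 and 0.0391 were lost without 1 array of zone 2 or zone 3, among them UGT71C1 without zone 3 replicate 1 (0.128) or zone 2 replicate 2 (0.143), UGT72B3 without zone 3 replicate 2 (0.390) or either zone 2 array (0.0907 and 0.139), and UGT73D1 without zone 3 or zone 2 replicate 1 (0.0890 and 0.137). UGT71C5 lost its call without any of 9 arrays, with the highest adjusted p, 0.342, without zone 3 replicate 1. Single arrays also moved the size: UGT72B3 had 0.83 without zone 3 replicate 2 and 2.91 without zone 3 replicate 1, and UGT71C5 had 1.71 and 0.46. Without the 4 arrays of high plastid signal, which leaves 1 array in zone 2 and 1 in zone 3, UGT71C1, UGT72B3 and UGT73D1 did not pass (2.10, 0.68 and 2.01, with adjusted p = 0.149, 0.550 and 0.0783), while UGT71C5 did (1.77). At pH 4.6 these 4 had positive values of 0.58 to 1.66 and did not pass. UGT78D1 rose there, from 18 and 5.23 to 97.7 and 76.8 (1.94 ± 0.61), while UGT73C7 fell from 431 and 358 to 101 and 92.6 (-1.86 ± 0.46) and UGT76E12 from 116 and 153 to 43.1 and 12.7 (-1.86 ± 0.58). Of these, UGT78D1 was lost without any of the 4 arrays compared (adjusted p = 0.0803 to 0.198), UGT73C7 without zone 2 replicate 1 or either zone 3 array (0.0881, 0.0501 and 0.0573), and UGT76E12 without either zone 2 array or zone 3 replicate 2 (0.109, 0.164 and 0.247). UGT76E12 passed the filter on dim probe sets through zone 2 alone, the zone where it is high, so its fall out of zone 2 is not independent of that choice. UGT72B3 and UGT73D1 passed it only through zones 3 and 4, so the same limit holds for their rises from zone 2. UGT78D1 and UGT76E12 did not pass without the 4 arrays (adjusted p = 0.0792 and 0.128).

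UGT72E1 and UGT85A2 fell from zone 2 to zone 3 at pH 5.7, against the direction of the other 7 calls. UGT72E1 glucosylates monolignol aldehydes such as coniferyl aldehyde. Its signals were 40.6 and 95.7 in zone 2 and 2.76 and 10.9 in zone 3, a fall of -1.82 ± 0.53 (adjusted p = 0.0158), and at pH 4.6 it rose instead, from 11.5 and 87.9 to 285 and 231 (2.35 ± 0.53, adjusted p = 0.00523). UGT85A2 went from 942 and 790 to 235 and 262 at pH 5.7 (-1.74 ± 0.34, adjusted p = 0.00106), and from 849 and 1154 to 994 and 673 at pH 4.6, where it did not pass (-0.27 ± 0.34). The opposite calls of UGT72E1 rest on few arrays: the fall was lost without zone 3 replicate 1 or zone 2 replicate 2 at pH 5.7 (adjusted p = 0.0717 and 0.146) and the rise without zone 2 replicate 1 at pH 4.6 (0.109), where its size was 1.39 in place of 2.35. Without the 4 arrays of high plastid signal the fall did not pass (-1.59, adjusted p = 0.168). Of the 38 members 29 had the same sign at both pH values in this step (76.3%, against 74.8% of all probe sets), and 3 were called at both, UGT72E3 and UGT76C2 in the same direction and UGT72E1 in opposite ones.

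**Figure D1:**
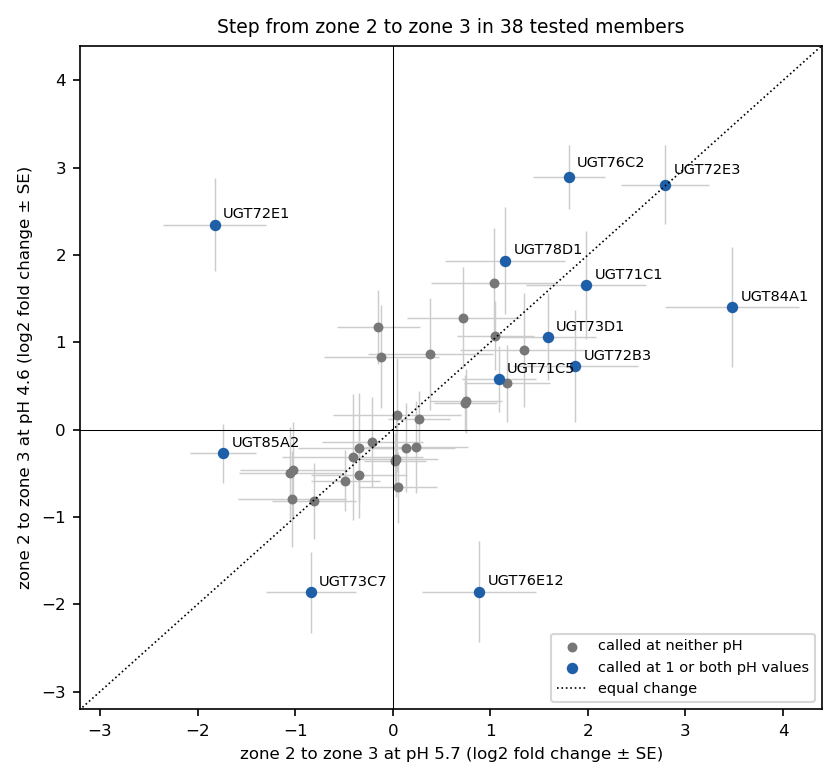
Change from zone 2 to zone 3 in each of the 38 tested UGT genes, as log2 fold change ± SE at pH 5.7 (horizontal axis) and at pH 4.6 (vertical axis), with 2 arrays per group; blue points passed the limma test at 1 or both pH values and the dotted line marks equal change. UGT72E3 (2.80 and 2.81) lies on the line, while UGT72E1 lies at -1.82 and 2.35, in the quadrant of opposite signs.

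From zone 3 to zone 4 at pH 5.7, 6 members passed (15.8%, against 12% of all probe sets), 5 higher and 1 lower, where 6.63% and 5.32% of all were. UGT72E1 rose from 2.76 and 10.9 to 221 and 139 (3.09 ± 0.53, adjusted p = 0.0017), and its call held without any 1 array. UGT88A1 rose from 45.7 and 122 to 358 and 326 (1.96 ± 0.51), and UGT85A2 from 235 and 262 to 867 and 405 (1.21 ± 0.34). UGT71C5, which conjugates abscisic acid, rose from 481 and 194 to 767 and 714 (1.23 ± 0.38), and UGT73C7 fell from 43.5 and 164 to 19.0 and 6.42 (-1.88 ± 0.46). UGT88A1 was lost without zone 3 replicate 1 or either zone 4 array (adjusted p = 0.0889, 0.137 and 0.0791), UGT85A2 without either zone 3 array or zone 4 replicate 1 (0.0597, 0.0725 and 0.326), and UGT73C7 without replicate 2 of zone 3 or of zone 4 (0.154 and 0.110). UGT71C5 kept its call without 3 of the 16 arrays, and its adjusted p reached 0.384 without zone 3 replicate 2. Sizes moved as well: without 1 array UGT85A2 had 0.68 (zone 4 replicate 1), UGT73C7 had -1.09 (zone 3 replicate 2) and UGT71C5 had 0.60 (zone 3 replicate 2) or 1.85 (zone 3 replicate 1). Without the 4 arrays of high plastid signal UGT71C5 (0.65, adjusted p = 0.414) and UGT73C7 (-0.76, adjusted p = 0.410) did not pass, and UGT85A2 had 1.82. The root hair sum fell over this step from 7821 to 10839 to 646 to 1056, and the GAPDH measure read 5.08 and 5.59 on the zone 3 arrays and 3.25 and 3.65 on those of zone 4. The Ubq control went from 3.07 and 3.34 to 2.26 and 2.55, while the Actin control overlapped (6.18 and 4.98 to 4.99 and 5.17). The part of the markers or controls in these results was not tested.

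At pH 4.6 none of the 38 rose from zone 3 to zone 4 and 2 fell (5.26%), where 4.19% of all probe sets passed, 1.9% higher and 2.29% lower. UGT84A1 went from 173 and 58.4 to 4.34 and 2.61 (-2.61 ± 0.68, adjusted p = 0.0432), and UGT71B1 from 227 and 149 to 30.2 and 48.4 (-1.88 ± 0.44, adjusted p = 0.0235). The zones did not overlap in either gene, but both calls were fragile: UGT84A1 kept its call without 6 of the 16 arrays, with adjusted p up to 0.297 without zone 3 replicate 1, and UGT71B1 lost its call without any of the 4 arrays compared (0.0662 to 0.204). UGT71B1 did not pass without those 4 arrays of high plastid signal (adjusted p = 0.0707). The root hair sum fell over this step from 1522 to 1840 to 72.0 to 132, the meristem marker HTB1 rose (1.097), and the GAPDH measure went from 4.13 and 4.44 to 5.67 and 4.92. The other meristem markers, BBM (0.36) and AUR2 (0.19), did not pass. The zones overlapped for the Actin control (5.33 and 4.93 to 4.85 and 5.29) and the Ubq control (2.90 and 2.92 to 3.24 and 2.76). The part of the markers or controls was not tested. Counting unadjusted p under 0.05, 2 members were higher and 6 lower. Of the 38, 22 had the same sign in this step at both pH values (57.9%, against 59.6% of all probe sets), and 0 were called at both, with 9 and 8 at unadjusted p under 0.05 at pH 5.7 and pH 4.6.

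**Figure D2:**
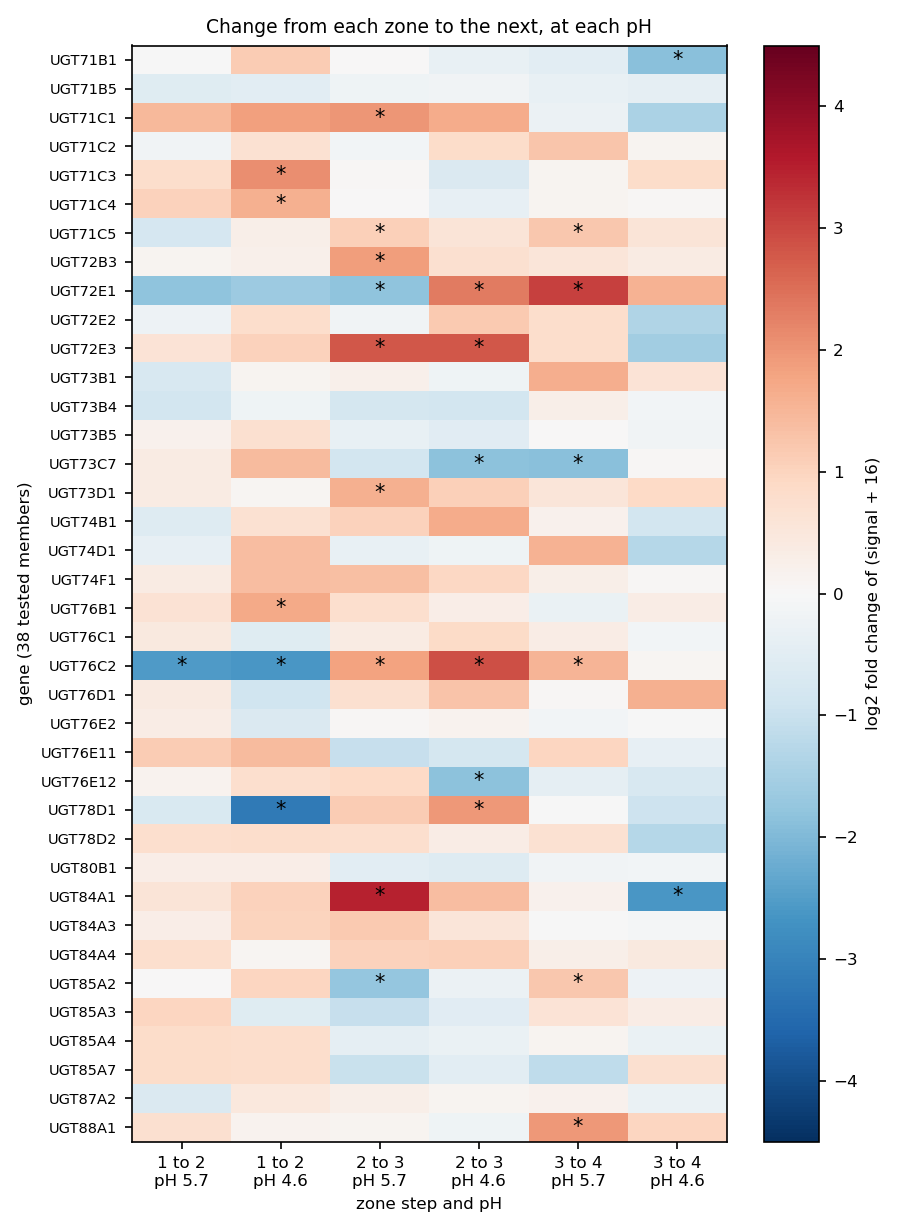
Change from each zone to the next at pH 5.7 and pH 4.6 in the 38 tested UGT genes (rows), as log2 fold change of (signal + 16), with red for higher and blue for lower in the later zone and a star where the limma adjusted p is under 0.05. Stars number 1, 9 and 6 at pH 5.7 and 5, 6 and 2 at pH 4.6 for the 3 steps in order, and UGT76C2 has a star in 5 of the 6 columns.

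Averaged over zones, low pH raised UGT71C5, UGT72E1 and UGT73C7 and lowered UGT84A1, 4 of 38 members (10.5%, against 6.07% of all probe sets, 3.66% higher and 2.4% lower). The median change of the 38 was 0.11, against 0.04 over all probe sets. UGT71C5 rose by 0.83 ± 0.19 (adjusted p = 0.0171). Its signals at pH 5.7 and pH 4.6 were 251 and 230 against 463 and 251 in zone 1, 130 and 142 against 399 and 432 in zone 2, 481 and 194 against 758 and 521 in zone 3, and 767 and 714 against 924 and 960 in zone 4. It was higher in all 4 zones by 0.34 to 1.51, with arrays apart in zones 2, 3 and 4 while in zone 1 they overlapped by a small margin (250.5 at pH 4.6 below 251.1 at pH 5.7), and this call held without any 1 array. UGT73C7 had a mean effect of 0.85 ± 0.23 (adjusted p = 0.0404) and UGT84A1 of -1.30 ± 0.34 (adjusted p = 0.0347), and each kept its call without only 4 of the 16 arrays, with adjusted p up to 0.106 without zone 4 pH 4.6 replicate 2 and up to 0.0936 without zone 2 pH 4.6 replicate 1. UGT72E1 (1.096 ± 0.26, adjusted p = 0.0229) kept its call without 11 of the 16, with adjusted p up to 0.0696 without zone 4 pH 4.6 replicate 2; without the 4 arrays of high plastid signal it had 0.0565. The effects of UGT72E1 and of UGT84A1 differed in sign between zones, with zone values given below beside the interaction test. Their mean effects therefore do not stand for each zone. Of the 38, 8 had the same sign in all 4 zones, which was not counted over all probe sets.

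In zones 1 and 2 no member passed the test, by limma, while 0.683% and 0.384% of all probe sets did (in zone 2, 0.299% higher and 0.0853% lower); 5 and 6 members had an unadjusted p under 0.05. In zone 2, 28 of 38 had higher values at low pH, with a median of 0.38 against -0.01 over all probe sets. The largest there were UGT76E12, which passed the filter through this zone alone, with 28.5 and 16.04 at pH 5.7 and 116 and 153 at pH 4.6 (1.98 ± 0.58), and UGT71C5 (1.51 ± 0.38). In zone 1 the largest values were those of UGT78D1, with 91.3 and 38.1 at pH 5.7 and 360 and 144 at pH 4.6 (1.69 ± 0.61), and of UGT76E12 (1.38 ± 0.58). Both pH values were apart in these genes and zones, but the changes did not pass over all probe sets. Without either zone 3 array at pH 5.7 a member passed in zone 2, where more of all probe sets passed as well. In zone 2 the summed signal of 3 meristem markers was 1569 to 1979 at pH 5.7 and 715 to 939 at pH 4.6. HTB1 made up most of this sum: over both pH values it had 660 to 1887 in zone 2. AUR2 had 52.4 to 83.9 and BBM 2.24 to 11.7. Low pH effects there were -1.14 for HTB1, -0.17 for AUR2 and -0.46 for BBM, none past the test. In zone 1 the plastid mean was 8.25 and 8.78 at pH 5.7 and 9.91 and 10.3 at pH 4.6. Their part in these results was not tested.

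In zone 3 low pH raised 2 members (5.26%) and lowered none, where 2.8% of all probe sets passed, 1.9% higher and 0.896% lower; unadjusted p fell under 0.05 for 7 members upward and 1 downward. UGT72E1 had signals of 2.76 and 10.9 at pH 5.7 and of 285 and 231 at pH 4.6, a rise of 3.60 ± 0.53 (adjusted p = 0.00159) that held without any 1 array. Leaving out the 4 arrays of high plastid signal leaves 1 array against 1 here (4.01 ± 0.75, adjusted p = 0.0497, on the spread of the other groups). UGT85A2 rose from 235 and 262 to 994 and 673 (1.66 ± 0.34, adjusted p = 0.016), a call lost without pH 4.6 replicate 1 (0.172). Without pH 5.7 replicate 1 more members passed, but more of all probe sets passed as well, so the shift was not confined to the family. These arrays of zone 3 at pH 5.7, where both genes had their lowest group means, are also the arrays behind their fall from zone 2 and their rise into zone 4. UGT72E2, a monolignol glucosyltransferase that makes coniferin, had 1144 and 484 at pH 5.7 and 3150 and 1577 at pH 4.6, apart but not past the test (1.56 ± 0.42). UGT84A1 had 660 and 157 against 173 and 58.4, which overlap (-1.53 ± 0.68, not past the test). Beside these, the summed signal of 3 root hair markers was 7821 to 10839 at pH 5.7 and 1522 to 1840 at pH 4.6, and the GAPDH 3' over 5' measure was 5.08 and 5.59 against 4.13 and 4.44. The Ubq control had 3.07 and 3.34 against 2.90 and 2.92, while the Actin control overlapped (6.18 and 4.98 against 5.33 and 4.93). The part of the markers or controls in these results was not tested.

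In zone 4 low pH changed 5 members (13.2%, against 2.91% of all probe sets), 2 upward and 3 downward (1.38% and 1.53% of all), the most of the 4 zones. UGT84A1 had signals of 288 and 477 at pH 5.7 and of 4.34 and 2.61 at pH 4.6, a fall of -4.31 ± 0.68 (adjusted p = 0.00292) that held without any 1 array; at such low signals the size of the fall depends on the constant of 16. UGT72E3 fell from 635 and 538 to 150 and 171 (-1.77 ± 0.45, adjusted p = 0.0471). UGT78D2, a glucosyltransferase of flavonols and anthocyanins, fell from 2404 and 2120 to 654 and 675 (-1.74 ± 0.37, adjusted p = 0.0166). UGT72E1 rose from 221 and 139 to 638 and 998 (2.09 ± 0.53, adjusted p = 0.0455), and UGT73C7 from 19.0 and 6.42 to 81.0 and 124 (2.05 ± 0.46, adjusted p = 0.0248). The pH values were apart in all 5 genes. Every member called in a single zone or step had its arrays apart, so this adds no support to the calls. How often all probe sets were apart was not counted. Without any 1 of the 4 arrays of zone 4 fewer of all probe sets passed there, and calls of members were lost too. The calls of UGT72E1, UGT72E3, UGT73C7 and UGT78D2 were each lost without any 1 of the 4 arrays of zone 4, with adjusted p of 0.113 to 0.281, 0.162 to 0.323, 0.0669 to 0.206 and 0.0873 to 0.163, and the count fell to 1, UGT84A1, each time. Arrays outside zone 4 also decided 2 of them: UGT72E1 was lost without any 1 array of zone 1 at pH 5.7 or zone 3 at pH 4.6 (0.0601 to 0.0619), and UGT72E3 without any 1 array of zone 2 (0.0539 to 0.0635). Without the 4 arrays of high plastid signal, UGT84A1 and UGT78D2 passed, and UGT72E1, UGT72E3 and UGT73C7 did not (adjusted p = 0.197, 0.113 and 0.0657).

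Changes of more than 1 log2 unit in zone 4 were seen in 13 of the 38 members (34.2%), against 12.7% of all probe sets; the shares were 13.2%, 15.8% and 15.8% in zones 1, 2 and 3, against 12.5%, 9.17% and 15.1%. Of those 13 in zone 4, 8 did not pass. They include UGT74D1, which conjugates oxidised auxin, with 1731 and 991 at pH 5.7 and 305 and 482 at pH 4.6 (-1.73 ± 0.63), UGT71C1 (795 and 591 against 217 and 273), UGT71B1 (141 and 122 against 30.2 and 48.4) and UGT88A1 (358 and 326 against 105 and 107), all lower at pH 4.6 and apart. Upward, UGT76D1 had 102 and 63.9 at pH 5.7 and 184 and 243 at pH 4.6 (1.23 ± 0.58), and UGT85A7 had 20.2 and 10.8 against 71.5 and 52.2 (1.31 ± 0.55), also apart. The remaining members of the 8 had lower means at pH 4.6. UGT76E12 was apart (19.0 and 62.2 against 17.6 and 2.63), while UGT73B1 overlapped (766 and 297 against 117 and 413). The summed root hair marker signal was 646 to 1056 at pH 5.7 and 72.0 to 132 at pH 4.6 in this zone. The GAPDH measure was 3.25 and 3.65 against 5.67 and 4.92, higher at low pH, where in zone 3 it was lower. For the Actin control the pH values overlapped (4.99 and 5.17 against 4.85 and 5.29). For Ubq they were 2.26 and 2.55 against 3.24 and 2.76. The part of the markers or controls in the zone 4 results was not tested.

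**Figure D3:**
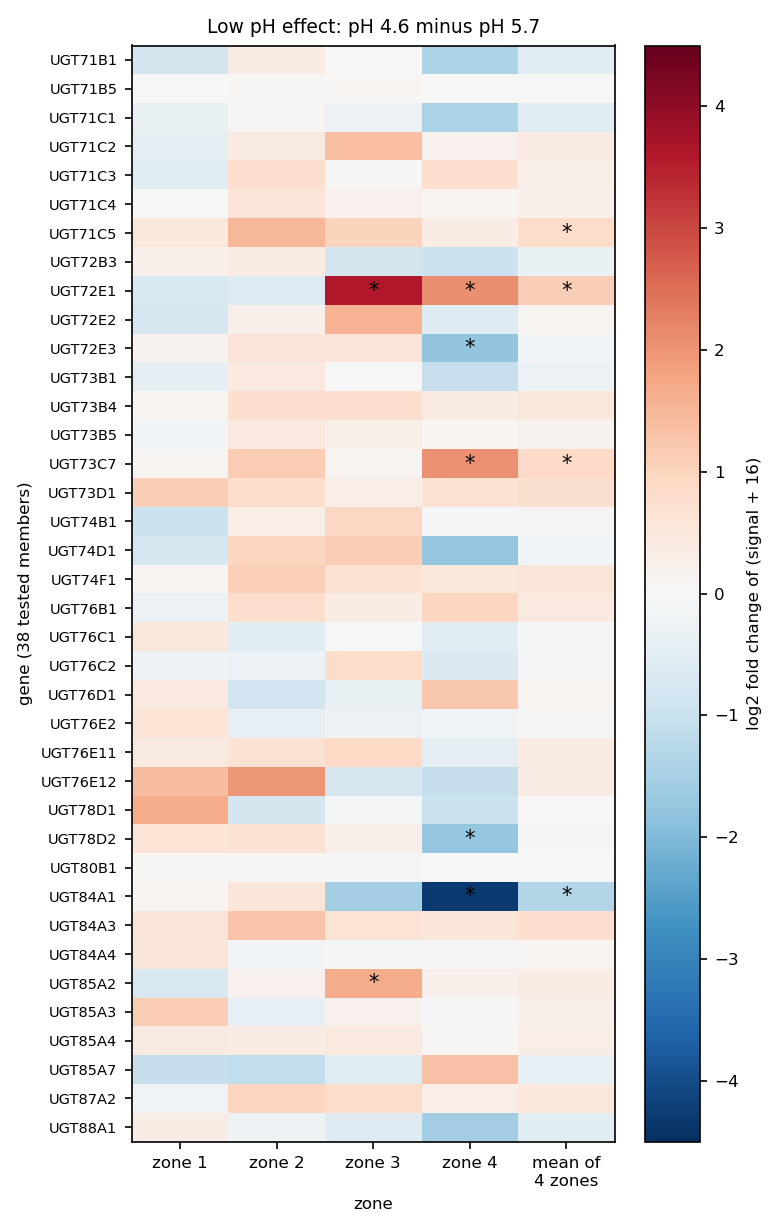
Low pH effect, pH 4.6 minus pH 5.7, in each zone and as the mean of the 4 zones for the 38 tested UGT genes (rows), as log2 fold change of (signal + 16); red is higher and blue lower at low pH, and a star marks a limma adjusted p under 0.05. Stars number 0, 0, 2, 5 and 4 from left to right, and the deepest red and blue are UGT72E1 in zone 3 (3.60) and UGT84A1 in zone 4 (-4.31).

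The interaction test, which asks directly whether the low pH effect differed between zones, passed for UGT72E1 (adjusted p = 0.012), UGT84A1 (0.0427) and UGT78D2 (0.0491), 3 of 38 members (7.89%, against 1.59% of all probe sets), with 12 at unadjusted p under 0.05. UGT72E1 had effects of -0.73, -0.57, 3.60 and 2.09 in zones 1 to 4 (each ± 0.53), UGT84A1 of 0.09, 0.55, -1.53 and -4.31 (each ± 0.68), and UGT78D2 of 0.63, 0.66, 0.24 and -1.74 (each ± 0.37). The interaction of UGT72E1 was lost without zone 3 pH 4.6 replicate 1 (adjusted p = 0.0536) and held without each of the other 15 arrays. UGT84A1 and UGT78D2 each kept it without 5 of the 16, with adjusted p up to 0.149 without zone 4 pH 5.7 replicate 2 and up to 0.195 without zone 4 pH 4.6 replicate 1. None of the 3 passed without the 4 arrays of high plastid signal (0.113 for UGT72E1, 0.121 for UGT84A1 and 0.134 for UGT78D2).

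**Figure D4:**
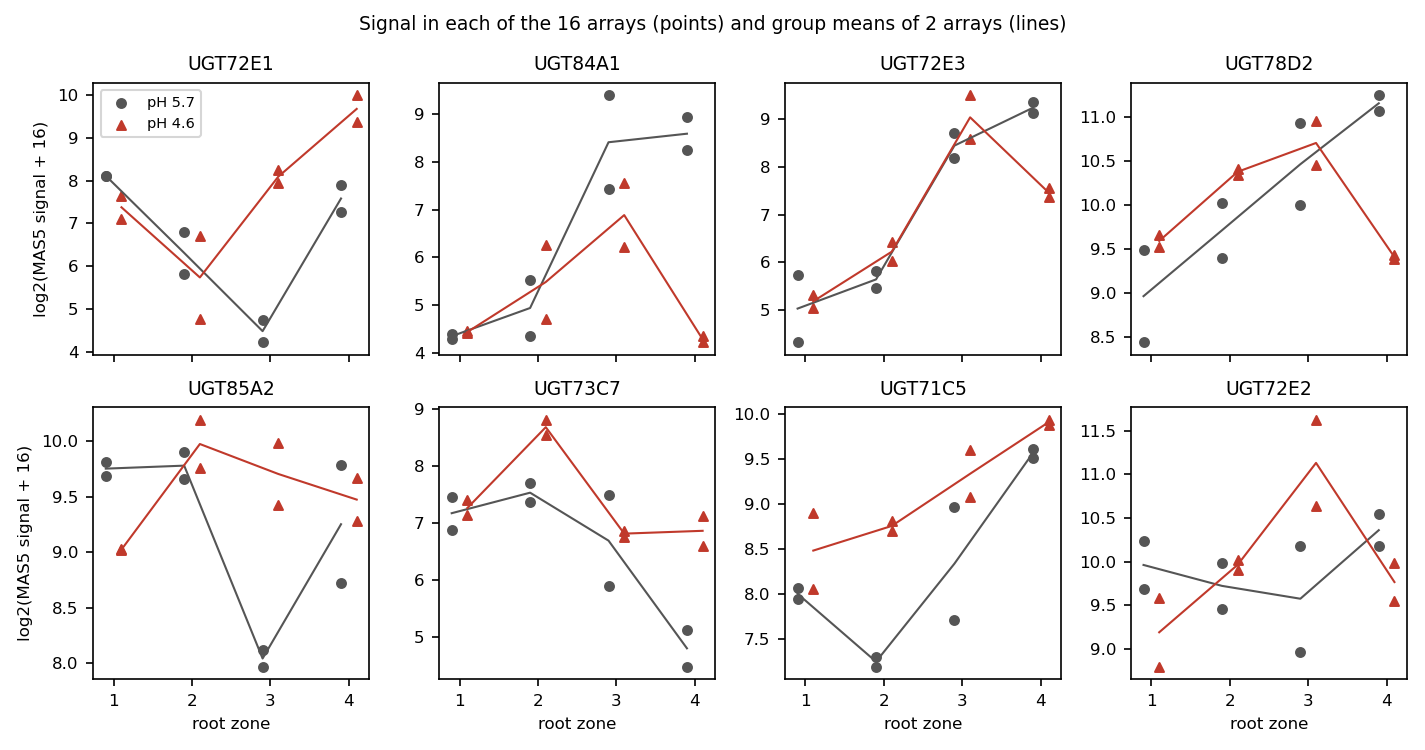
Signal of 8 UGT genes by root zone, as log2(MAS5 signal + 16): each point is 1 array, grey circles at pH 5.7 and red triangles at pH 4.6, and lines join group means of 2 arrays. The 7 genes called in a low pH comparison are shown with UGT72E2, which was not called; UGT72E1 at pH 5.7 drops to 2.76 and 10.9 in zone 3, and UGT84A1 at pH 4.6 drops to 4.34 and 2.61 in zone 4.

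The members were also arranged by known acceptor. Of 8 listed genes for monolignols and hydroxycinnamic acids 6 were members, all tested: UGT72E1, UGT72E2, UGT72E3, UGT84A1, UGT84A3 and UGT84A4. In zone 4 at low pH 1 of them rose and 2 fell, and 2 of the 6 passed the interaction test. Of all probe sets 2.91% passed in zone 4 and 1.59% in the interaction. These are calls already given above, arranged by acceptor, and the list as a whole was not tested. Within UGT72E, the low pH effect in zone 4 was 2.09 ± 0.53 for UGT72E1, -0.60 ± 0.42 for UGT72E2 and -1.77 ± 0.45 for UGT72E3, and in zone 3 it was 3.60 ± 0.53, 1.56 ± 0.42 and 0.59 ± 0.45. Within the UGT84A run, the neighbours of UGT84A1 had zone 4 effects of 0.56 ± 0.44 (UGT84A3, 91.5 and 86.4 against 188 and 102) and 0.07 ± 0.39 (UGT84A4, 415 and 329 against 420 and 358). Differences between genes were not tested.

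Of 17 listed hormone UGTs 11 were members and 6 were tested. Low pH raised UGT71C5 in the mean effect, and none of the 6 passed in a single zone, with UGT74D1 the largest. The cytokinin gene UGT76C2 had low pH effects of -0.22, -0.27, 0.82 and -0.64 in zones 1 to 4 (each ± 0.37), none past the test. UGT76B1 was higher in zone 4 at pH 4.6, with 3777 and 4293 against 1995 and 2162, and did not pass (0.95 ± 0.32). Of 8 listed flavonoid UGTs 3 were members and 2 were tested: UGT78D2 fell in zone 4, and UGT78D1 had -0.97 ± 0.61 there. The 3 tested UGT73B genes, known from pathogen and stress responses, did not pass in any comparison; UGT73B4 ran from 747 to 3785 over the 16 arrays, UGT73B5 from 311 to 972 and UGT73B1 from 95.1 to 766. UGT74B1, of glucosinolate synthesis (66.2 to 891), and UGT80B1 (113 to 268) also passed in none.

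Among the probe sets of highest signal in the family were UGT73B4, UGT76B1, UGT87A2, UGT71C4, UGT78D2 and UGT72E2, though signals of different probe sets cannot be ranked as transcript amounts. UGT87A2 ran from 930 to 3139 and was called in no comparison, with low pH effects of -0.17, 0.95, 0.81 and 0.29 in zones 1 to 4. In all, 18 of the 38 tested members passed in at least 1 of the 12 comparisons, 17 in a zone step, 7 in a low pH comparison or the interaction, and 6 in both kinds. How many of all probe sets did so was not counted, so these totals show no excess over other genes. The 20 without a call include all 3 UGT73B genes, both members of the UGT84A run next to UGT84A1, and 3 of the 4 tested UGT85A genes.

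Enzymes around the UGTs were sparsely named on the array. Of 8 general phenylpropanoid genes 0 had a listed probe set, of 10 monolignol genes 2, of 8 flavonoid genes 1 and of 22 UDP-sugar genes 1. Both monolignol genes, HCT and the cinnamoyl-CoA reductase gene CCR2, rose from zone 2 to zone 3 at both pH values, HCT by 2.70 ± 0.31 and 1.93 ± 0.31 and CCR2 by 3.72 ± 0.38 and 4.07 ± 0.38. HCT fell from zone 3 to zone 4 at pH 4.6 (-1.16 ± 0.31, adjusted p = 0.0499), with 7521 and 4412 in zone 3 and 2602 and 2534 in zone 4. Neither gene, nor the flavonoid and the UDP-sugar gene, passed in a low pH comparison. Beta-glucosidases can take the sugar off again; of 20 with a listed probe set 8 were tested, and 0 passed in a low pH comparison by limma, with 4 at unadjusted p under 0.05 in the mean effect. BGLU46, a glucosidase that acts on monolignol glucosides, fell from zone 1 to zone 2 at pH 5.7 (-2.51 ± 0.51) and rose into zone 3 (2.99 ± 0.51), while at pH 4.6 it went from 122 and 128 to 105 and 87.7 and did not pass. BGLU27 rose from zone 2 to zone 3 at pH 5.7 (1.57 ± 0.47), and BGLU16 rose from zone 2 to zone 3 at pH 4.6 (1.22 ± 0.38) and from zone 3 to zone 4 at pH 5.7 (1.54 ± 0.38). Of 11 tested tau and phi glutathione S-transferases, which conjugate foreign compounds, GSTU26 fell in the mean low pH effect (-1.01 ± 0.20), GSTU26 (-1.64 ± 0.40) and GSTU28 (-3.19 ± 0.44) fell in zone 3, and GSTF4 fell in zone 4 (-1.74 ± 0.43), with 462 and 365 at pH 5.7 and 118 and 106 at pH 4.6. Of all probe sets 2.4% fell in the mean effect, 0.896% in zone 3 and 1.53% in zone 4. In zone 3 GSTU26 had 744 and 355 at pH 5.7 and 146 and 164 at pH 4.6. GSTU28 had 420 and 770 against 48.3 and 47.8. GSTU28 and GSTF4 also passed the interaction test, as 1.59% of all probe sets did. These calls were not examined without single arrays.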

How the data were processed

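Total RNA of 16 root samples was measured on Affymetrix arrays after a two-cycle labelling, per the labels' protocols. The deposited values are linear intensity values by MAS5, a name taken from the submitters' processing notes, which give neither version nor settings here. The mean of deposited intensities between the 2nd and 98th percentile was alike on all arrays (247 to 248 without the 64 control probe sets). No detection call was used. Names came from a platform annotation (13513 probe sets with 1 gene) and the RefSeq table of TAIR10.1. Signals were taken as log2(value + 16), filtered at the 40th percentile of zone means (5.95; 16405 of 22746 probe sets) and fitted with limma 3.58.1 in R 4.3.3 (8 group means, eBayes with trend, 8 residual and 7.44 prior degrees of freedom, Benjamini-Hochberg over all tested). The fit was tested on simulated data. With 2 arrays against 2, an exact permutation test cannot go below p = 0.333 and was not used. Every member past the threshold in any of the 12 comparisons is named. The members and lists were chosen with earlier results of these data known. The pseudocount, filter, scaling, replicate block and leaving out each array were varied. The number of arrays limits precision. No protein or promoter sequences were used.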

Additional observations from a re-analysis of the deposited data

Results flagged for a closer look

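The low pH effect differed between zones, by the interaction test over the 4 zones, in 3 members. UGT72E1 (adjusted p = 0.01199) had negative values in zones 1 and 2 (-0.73 and -0.57) and rose in zones 3 and 4. UGT84A1 (adjusted p = 0.04267) had values near 0 in zone 1 (0.09) and fell in zone 4 (-4.31). UGT78D2 (adjusted p = 0.04914) had positive values in zones 1 to 3 (0.63, 0.66 and 0.24) and fell in zone 4 (-1.74). Apart from the comparison of plastid means between the 2 arrays of a group, groups were not searched for outlying samples.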

How the results depend on the processing

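The members called numbered 4, 0, 0, 2 and 5 for the low pH effect (mean, zones 1 to 4), 3 for the interaction, 1, 9 and 6 for the zone steps at pH 5.7 and 5, 6 and 2 at pH 4.6. Leaving out each array in turn gave 1 to 5, 0 to 0, 0 to 1, 1 to 6, 1 to 6, 0 to 6, 1 to 2, 6 to 11, 2 to 7, 2 to 7, 2 to 8 and 0 to 5 in the same order; the lone array left is assumed to vary like the other groups. With no filter the mean effect had 2 calls, zone 4 had 3, the interaction 1 and the step from zone 3 to 4 at pH 4.6 had 1. With a pseudocount of 4, zone 4 had 3 calls and the interaction 1; with 64, the step from zone 1 to 2 at pH 5.7 had 2 and that from zone 3 to 4 at pH 4.6 had 5. With each array centred on its median the interaction had 1 call and the step from zone 3 to 4 at pH 4.6 had 1. Without the 4 arrays of high plastid signal, an alternative chosen after seeing the data, zone 4 had 2 calls (UGT84A1 and UGT78D2), the interaction 0, the step from zone 1 to 2 had 2 at pH 5.7 and 8 at pH 4.6; zone 3 then compares 1 array with 1, and 16 of the 43 named changes did not pass. With quantile normalization every count stayed within 1.5 times. Calls over all probe sets shifted too. In zone 4 they numbered 477 in the main setting, 407 with no filter and 368 with a pseudocount of 4, and in the interaction 261, 197 and 153. They also shifted with arrays left out, so the shifts in member counts are not read as particular to the family. The cause of these shifts was not tested. Of 43 named changes 12 kept their call without any 1 array, and none turned its direction in any alternative. With the replicate number as a block (replicate block), 4 members fell from zone 3 to 4 at pH 4.6 in place of 2 and all 43 calls held. The numbers share only a label: deviations of same-numbered arrays correlated from -0.25 to 0.41 over 28 pairs of groups. MAS5 signals near 0 carry no order, which limits the size of each change with an array under the lowest first quartile, 15.6, as in UGT84A1, UGT72E1, UGT76C2, UGT78D1, UGT73C7, UGT72B3 and UGT76E12.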
